A study of Mus musculus with 18 samples.

Results

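The 4 h radiation response of embryonic stem (ES) cells was compared, gene by gene, with that of their differentiated (ED) derivatives. The comparison used 12 of the 18 arrays of the series, chosen by their labels: unirradiated ES cells (ES), ES cells 4 h after 10 Gy of ionizing radiation (ESRL), unirradiated ED cells (ED) and ED cells 4 h after 10 Gy (EDRL), with 3 arrays in each group, and the 6 arrays collected at 15 min were not used. The ES cells were wild-type, early passage mouse cells isolated from blastocysts and grown feeder-free on gelatin with leukemia inhibitory factor (LIF), the cytokine that holds them in the stem cell state. The ED cells were the isogenic cells after culture without LIF, which the labels give as 1 week or until the stem cell markers were lost and the methods as at least 4 days, also without beta-mercaptoethanol. This differentiation is undirected, so the ED cells are no defined lineage, and no label says whether the 3 samples of a group came from separate cultures, so that p-values measure only the spread between these samples. The question was which genes answered irradiation differently in stem and differentiated cells.

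Ionizing radiation breaks both strands of DNA. The kinase ATM senses the breaks and stabilizes p53, a transcription factor whose targets arrest the cell cycle, repair DNA, feed back on p53 or promote apoptosis. Stem cells in culture are known for a short G1 phase and a low threshold for apoptosis, and differentiated cells for a lasting arrest. An arrest by p53 is also known to lower the transcription of mitotic genes, many of which carry a short promoter element named the cell cycle homology region.

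RNA was labeled with Cy3 and hybridized to Agilent one-color arrays. Levels are log2 signals after each array was scaled to its 75th percentile, the brightness at which a level is 0. A response is the mean of the irradiated group minus the mean of its control, and the difference between the responses is the ES response minus the ED response, tested as an interaction with limma over 28372 probes of 26012 genes. A gene was called where the Benjamini-Hochberg adjusted p was under 0.05 and the log2 value was over 1 in size, and "rose" and "fell" are used of such calls. The labels held against the markers: of 20 pluripotency genes tested, 19 were lower in ED than in ES by more than 1 on the log2 scale, Pou5f1 (Oct4) lying at 6.69 in ES and -3.59 in ED on average. Sox2 was still at 2.32 in ED, against 4.68 in ES. Nanog and Zfp42 had too few spots free of an outlier mark to be tested. Of 9 fibroblast markers tested, 7 were higher in ED by more than 1, among them the collagen gene Col1a1, at 1.61 in ES and 7.16 in ED. None of the 9 had responses that differed, against 3.01% of all genes tested. Markers of other lineages were mostly lower in ED by more than 1. These were 6 of 8 for mesoderm, 4 of 5 for endoderm and 4 of 7 for neural ectoderm. For trophoblast they were 5 of 6, and for blood and endothelium 4 of 4. Higher in ED by more than 1 were 2 mesoderm markers and 1 endoderm marker.

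Replicates correlated at 0.984 or more across probes within ES, ED and EDRL, but at 0.956 to 0.972 within ESRL. Replicate 1 of ESRL was the dimmest of the 12 arrays (75th percentile of 1952, against 2912 to 4268 on the others), with 63.3% of its probes well above background. It was also scanned at another time than replicates 2 and 3 of ESRL. In the dimmest of 4 equal classes of probes by signal, replicates 1 and 2 of ESRL deviated from their group mean by a median of -0.25 and 0.3. Slide and irradiation cannot be told apart, because no slide (the arrays of 1 scan time) carried both a group and its control. With slide as a random block (correlation of 0.48), 3 genes remained called, namely 1700007K13Rik, Grhl3 and Mc1r, and 1639 probes, or 5.78% of all tested, had an unadjusted p under 0.05. ES, ED and EDRL each had 1 scan time, so this correlation rests on ESRL alone. A call that remains in this fit is therefore not freed from a slide effect. The counts that follow come from the fit without slide.

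The responses of the 2 cell types differed for 784 genes, or 3.01% of those tested, and were mostly more positive in ED cells. The change was more positive in ED for 574 genes (2.21%) and more positive in ES for 210 genes (0.807%). With each array set to its median the counts were 377 and 246, with quantile normalization 403 and 399, with the deposited matrix of values 387 and 255, and with responses centred on their median 441 and 401, so that the share more positive in ED, 73.2% here, was 60.5%, 50.2%, 60.3% and 52.4% under these scalings. With only probes clearly above background on each of the 12 arrays it was 59.9%. Without replicate 1 of ESRL, 792 genes were more positive in ED and 407 in ES, and without replicate 2 of ESRL 2959 and 588.

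The excess on the ED side was present in all 4 signal classes of probes and smallest in the brightest. The median difference over all probes was -0.15, but 0.01 with each array set to its median. From the dimmest to the brightest class it was -0.54, -0.36, -0.07 and 0.06. In the same order 202, 212, 132 and 34 probes were called more positive in ED and 42, 82, 65 and 24 in ES. Probes of mRNAs and of other transcripts were called at similar shares, 2.74% and 2.9%.

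**Figure D1:**
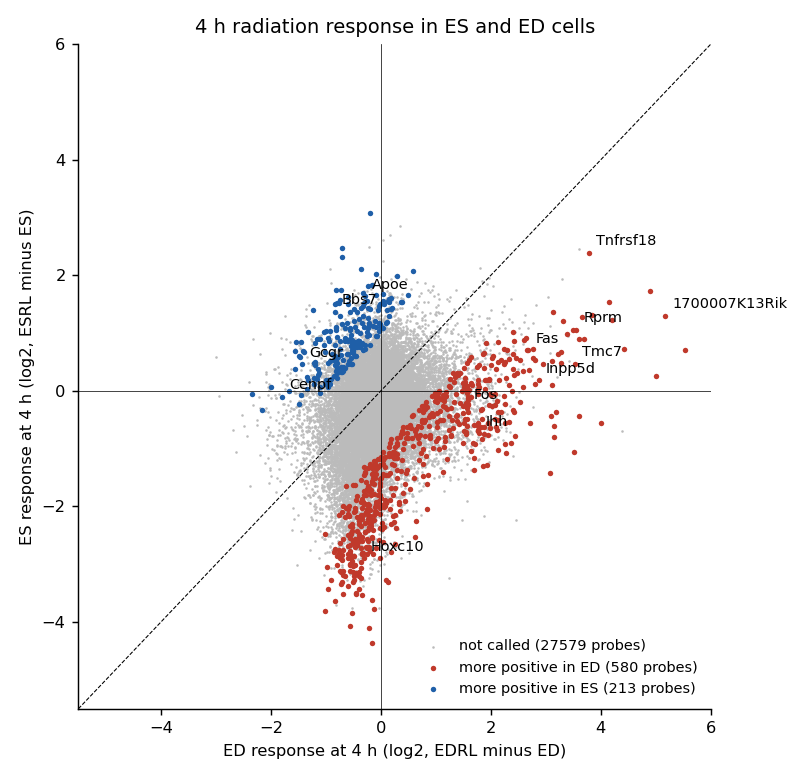
Each point is 1 of 28372 probes, placed by its ED response (x axis) and its ES response (y axis) at 4 h, both log2 of irradiated over control; red and blue mark the 580 and 213 probes called more positive in ED and in ES, and the dashed line marks equal responses. Red points spread along the x axis (rises in ED, led by 1700007K13Rik) and down the y axis (falls in ES, such as Hoxc10), and blue points lie above the line near the origin.

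The genes called divided into those that moved in ED cells, those that moved in ES cells and those in which only the difference passed. Of the 574 more positive in ED, 298 fell in ES without a call in ED, 198 rose in ED without a call in ES, 11 rose in both, 3 fell in ES and rose in ED, 1 fell in both and 63 were called in neither. Of the 210 more positive in ES, 79 rose in ES, 36 fell in ED, 1 did both and 95 were called in neither, 1 gene with several probes counting in more than 1 of these. For reference, 479 genes rose in EDRL against ED (1.84%) and 136 fell (0.523%), and 276 rose in ESRL against ES (1.06%) and 2034 fell (7.82%).

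The ES and ED responses share no arrays, and their correlation across probes was 0.26, given as a description since probes are not independent. The 479 genes that rose in ED had a median ES response of 0.23, against -0.16 over all probes, and 47 of them also rose in ES. These 47 were 9.81% of the genes that rose in ED and 17% of those that rose in ES. Among falls the overlap was 17 genes, 12.5% of those that fell in ED and 0.836% of those that fell in ES.

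The 4 genes that moved in opposite directions are named here after their values were seen. Ncan, which encodes the brain proteoglycan neurocan, rose in ES by 1.02 (limma adjusted p = 0.0108) and fell in ED by 1.32 (adjusted p = 0.00555), although it was well above background on only 11 of the 12 arrays. Glipr1, a p53-regulated gene of the CAP family, fell in ES by 1.04 (adjusted p = 0.03) and rose in ED by 1.63 (adjusted p = 0.0286), on 9 usable spots. The other two carry no gene symbol in the tables used, and both fell in ES and rose in ED, one of them being well above background on only 4 of the 12 arrays.

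The p53 targets were the list in which calls were most frequent on the ED side. Of 41 p53 targets on the array 35 were tested, and the responses of 10 were more positive in ED (28.6%, against 2.21% of all genes) and of none in ES. Their median response was 0.29 in ES and 0.83 in ED, against -0.18 and -0.09 over all genes, each gene taken by its brightest probe. In ED 16 of the 35 rose and none fell, where 1.84% of all genes rose and 0.523% fell. In ES 4 of the 35 rose and 1 fell, where 1.06% of all genes rose and 7.82% fell. The median difference was -0.83 over the list and -0.16 over all genes, and it stayed between -0.86 and -0.67 under the scalings tried, with 5 to 10 of the genes called. Of the 6 not tested, 5 had too few spots free of an outlier mark and 1, Bbc3, was not well above background on all arrays of any group.

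**Figure D2:**
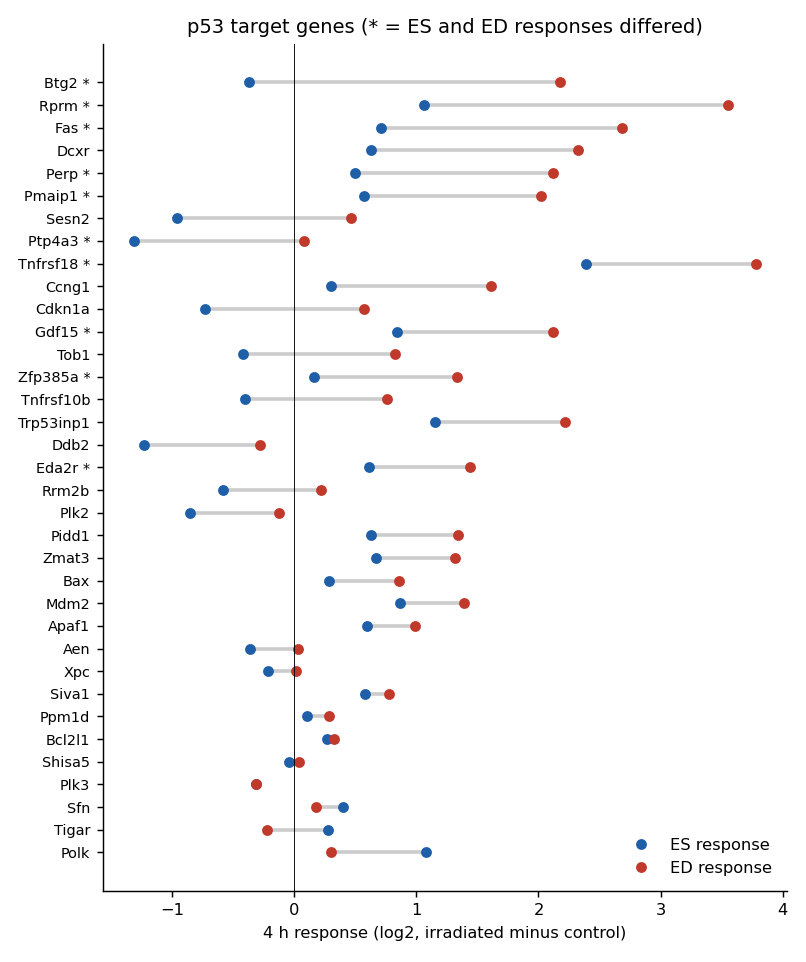
For each of the 35 p53 targets tested, the ES response (blue) and the ED response (red) at 4 h are shown on the log2 scale for its brightest probe, ordered by their difference; an asterisk marks a gene with a probe whose responses differed. In 32 of the 35 genes the ED response was the more positive, and Btg2, Rprm and Fas head the list.

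Among targets that act in arrest and feedback, 4 of 21 differed, all more positive in ED (19%, against 2.21% of all genes). Rprm, which encodes the cytoplasmic arrest protein reprimo, was at -0.71, -0.86 and -0.86 in ES, 0.63, 0.01 and 0.12 in ESRL, -5.49, -5.69 and -5.79 in ED and -2.09, -2.09 and -2.14 in EDRL. Irradiated and control arrays did not overlap in either cell type, and the ED level after irradiation was still under the ES level before it. Rprm rose 2.09-fold in ES and 11.7-fold in ED, a difference of -2.49 ± 0.24 (SE) on the log2 scale (limma adjusted p = 0.00158).

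Btg2, an antiproliferative gene that p53 induces early, was at -4.64, -4.12 and -3.7 in ES, -5.17, -3.57 and -4.84 in ESRL, -6.56, -5.7 and -5.71 in ED and -3.96, -3.96 and -3.5 in EDRL. The ES and ESRL arrays overlapped, and all EDRL arrays lay above all ED arrays. Its difference was -2.55 ± 0.59 (adjusted p = 0.0472), a call at the threshold that was lost in 11 of the 12 fits that left out 1 array (adjusted p up to 0.123, without replicate 3 of ES). Gdf15, a secreted growth and differentiation factor, rose in ED only and differed by -1.28 ± 0.2 (adjusted p = 0.00982), from -4.96 to -4.64 in ED and -2.78 to -2.6 in EDRL, and from -0.81 to -0.48 in ES and 0.08 to 0.28 in ESRL. Ptp4a3, a phosphatase linked to arrest, instead fell in ES, from -3.65 to -3.41 in ES to -5.02 to -4.63 in ESRL, while ED and EDRL overlapped between -3.86 and -3.35, a difference of -1.4 ± 0.25 (adjusted p = 0.0171).

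The other 6 calls were in the list of p53 targets named for cell death, of which 14 were tested (42.9%, against 2.21% of all genes). Membership of this list does not mean that each gene promotes cell death. Fas, the death receptor, was at -1.35, -1.37 and -1.01 in ES, -0.63, -0.45 and -0.49 in ESRL, -0.68, -0.46 and 0.1 in ED and 2.38, 2.21 and 2.4 in EDRL. Neither pair of groups overlapped, but the step was 1.64-fold in ES and 6.39-fold in ED. The difference was -1.96 ± 0.28 (adjusted p = 0.0068) and -1.17 on the other probe of Fas, which did not pass (adjusted p = 0.0758).

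Perp, a membrane protein of desmosomes that p53 induces in apoptosis, was at 4.22, 3.94 and 4.16 in ES and 4.37, 4.74 and 4.71 in ESRL, and at -0.62, -0.58 and -0.47 in ED and 1.69, 1.53 and 1.48 in EDRL. It rose 4.36-fold in ED from a level far under that of ES, and differed by -1.62 ± 0.2 (adjusted p = 0.00384). Pmaip1 (Noxa), a BH3-only protein that opposes survival proteins of the BCL2 family, was at 2.52 in the 1 usable ES array and 3.04 to 3.16 in ESRL, whereas it was well above background on none of the 3 ED arrays and on 2 of the 3 EDRL arrays. Its ED response was at least 1.26-fold, so the called difference of -1.45 ± 0.28 (adjusted p = 0.0353) rests on signals under background. Tnfrsf18, a receptor of the TNF family, rose 5.25-fold in ES and at least 4.42-fold in ED, where no control array was well above background. Its difference of -1.39 ± 0.25 (adjusted p = 0.0195) was 0.13 after normexp background correction, so that its direction depends on how dim spots are treated. The remaining calls, Eda2r and Zfp385a, a death receptor and a zinc finger gene, rose in ED by 1.74 and 1.33 and differed by -1.33 (adjusted p = 0.0446) and -1.17 (adjusted p = 0.0362).

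Several classical p53 targets had no difference that passed, among them some that rose in ED or in both cell types. Mdm2, the ubiquitin ligase that degrades p53, was at 4.32, 4.56 and 4.37 in ES, 5.49, 5.15 and 5.21 in ESRL, 3.33, 3.39 and 3.24 in ED and 4.79, 4.72 and 4.61 in EDRL. All irradiated arrays lay above their controls, and the difference was -0.52 (95% interval -0.95 to -0.09, adjusted p = 0.17). Trp53inp1, which modulates p53, rose in both (1.15 in ES and 2.22 in ED), with an interval of the difference from -1.74 to -0.39 (adjusted p = 0.0939). Ccng1, cyclin G1, rose in ED by 1.61 and was at 0.3 in ES (difference -1.31, interval -2.13 to -0.5, adjusted p = 0.0847).

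Cdkn1a, the CDK inhibitor p21, was at -2, -1.78 and -2.13 in ES and -2.77, -2.11 and -3.2 in ESRL, and at -0.76, -1.26 and -1.49 in ED and -0.6, -0.82 and -0.37 in EDRL. Neither response passed, and the groups overlapped in both cell types. The difference was -1.3 (interval -2.18 to -0.41, adjusted p = 0.108), and -1.51 on its other probe (adjusted p = 0.0988). Bax, the effector of apoptosis, differed by -0.58 (interval -1.46 to 0.31). Trp73, the p53 relative, rose in ES by 1.6 (adjusted p = 0.0347) and had an ED response of 1.54 (adjusted p = 0.0748). On this probe the ED controls were at -7.64, -5.97 and -7.8, with 2 of the 3 well above background. The ED response of Trp73 thus rests in part on signals near background. Its 3 probes differed by 0.07, -0.01 and 0.32, with an interval from -1.26 to 1.39 for the brightest, and the other 2 probes rose in both cell types. Of the 12 p53 family members and regulators tested, none differed, against 3.01% of all genes.

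Among the 14 motile cilium genes tested, 1700007K13Rik had the largest difference. Its level was 0.29, 0.4 and 0.5 in ES, 1.48 and 1.91 in the 2 usable ESRL arrays, -5.31, -5.2 and -5.33 in ED and -0.2, -0.07 and -0.06 in EDRL. It rose 2.46-fold in ES and 36.1-fold in ED, with no overlap in either, and EDRL ended under ES. The difference was -3.87 ± 0.22 (adjusted p = 0.00029), which was called in all 12 fits that left out 1 array and in all 5 other scalings. It was also called with slide as a random block (adjusted p = 0.0125), a fit that cannot separate slide from irradiation. Drc7, a component of the dynein regulatory complex of cilia, differed by -1.73 ± 0.34 (adjusted p = 0.0263), rising in ED from between -6.36 and -5.46 to between -4.72 and -4.15 while all ES and ESRL arrays lay between -3.19 and -2.89. Foxj1, the transcription factor that switches on motile ciliogenesis, went the other way: it rose in ES, from between -1.57 and -1.44 to between -0.38 and 0.37, and differed by 1.18 ± 0.26 (adjusted p = 0.0381). Of the 14 cilium genes tested, 2 were thus more positive in ED (14.3%, against 2.21% of all genes) and 1 in ES (7.14%, against 0.807%). The remaining 11 did not differ. The median difference of the list was 0, with 7 genes below 0 and 7 above.

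Promoter sequence was searched for p53 response elements, and the windows of some genes named above are shown. In the 250 bases before each RefSeq transcription start (build GRCm38.p6), a p53 response element was searched as a pair of 10-base sites of the published consensus up to 13 bases apart, with the central C and G of each site kept and at most 2 mismatches in all; the consensus reads the same on both strands. Such a match was present in 3.87% of the 27025 genes with a window and in 3.71% of the tested genes with one. It was present in 3 of the 26 p53 targets with one (Bax, Ccng1 and Cdkn1a, none of them called) and in 0 of the 7 called p53 targets with one. It was present in 8 of the 125 genes with a window that rose in ED and differed (6.4%), 1700007K13Rik among them, in 11 of the 252 more positive in ED (4.37%) and in 12 of the 117 more positive in ES (10.3%). The windows of 1700007K13Rik and, for comparison, of Ccng1 are shown with the matched sites in capitals, both on the minus strand of the genome.
1700007K13Rik, chr2:28466325-28466574: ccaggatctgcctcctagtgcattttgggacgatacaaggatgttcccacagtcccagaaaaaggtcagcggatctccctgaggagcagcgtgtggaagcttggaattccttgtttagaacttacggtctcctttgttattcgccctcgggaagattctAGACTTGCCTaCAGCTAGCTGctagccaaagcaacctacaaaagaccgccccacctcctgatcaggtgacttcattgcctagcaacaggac
Ccng1, chr11:40755287-40755536: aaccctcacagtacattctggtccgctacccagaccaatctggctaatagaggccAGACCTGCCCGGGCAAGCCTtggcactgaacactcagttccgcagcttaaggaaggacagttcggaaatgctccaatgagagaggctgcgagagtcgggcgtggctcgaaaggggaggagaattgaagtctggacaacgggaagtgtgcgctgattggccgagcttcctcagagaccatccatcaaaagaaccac
The match in 1700007K13Rik lay 71 to 91 bases before the start with 2 mismatches and a spacer of 1 base, and that in Ccng1 lay 176 to 195 bases before it with 1 mismatch and no spacer. The Btg2 window held no p53 match of this kind but a cAMP response element (TGACGTCA, which reads the same on both strands, in capitals). That element was carried by 1.77% of all genes with a window and by 2.49% of the tested genes with one. A match is a description of these letters and not a bound site.
Btg2, chr1:134079156-134079405, minus strand: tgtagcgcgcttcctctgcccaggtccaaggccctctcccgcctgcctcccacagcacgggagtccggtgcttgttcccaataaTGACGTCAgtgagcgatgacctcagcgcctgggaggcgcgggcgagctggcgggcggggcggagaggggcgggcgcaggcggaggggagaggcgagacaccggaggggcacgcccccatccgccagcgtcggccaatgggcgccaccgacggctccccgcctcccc

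**Figure D3:**
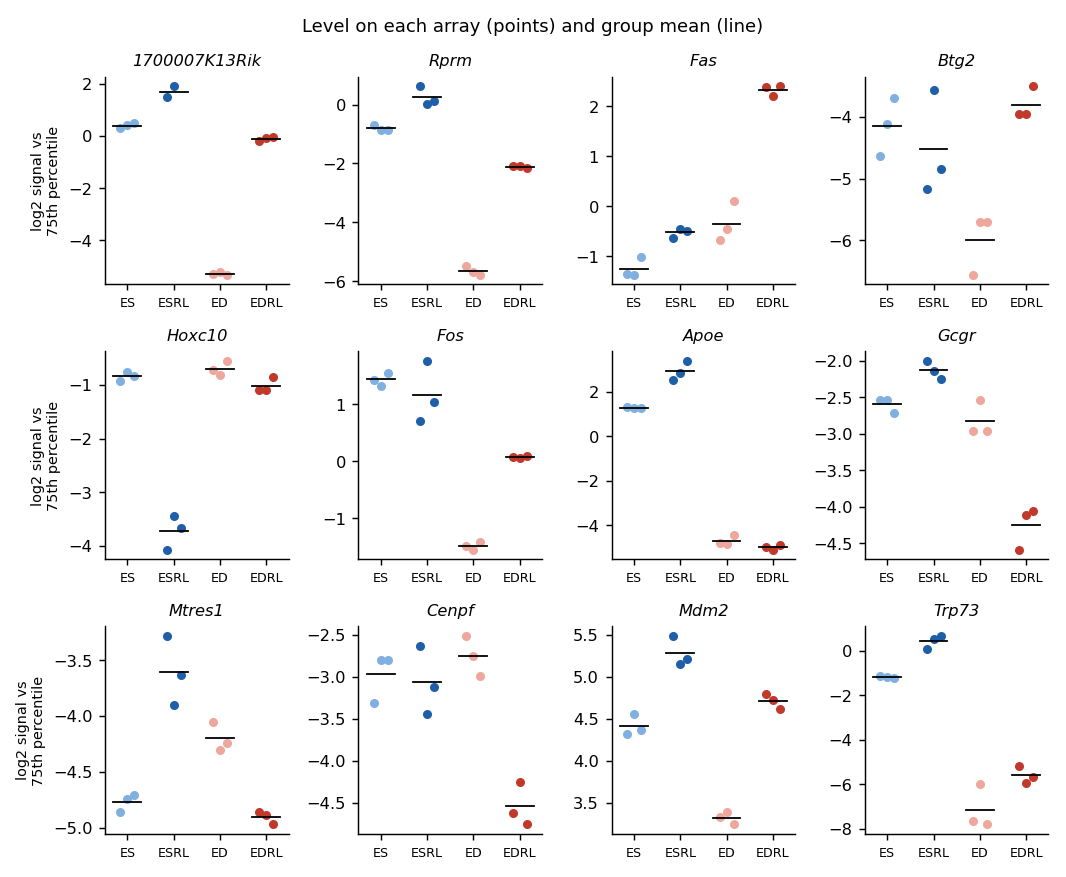
Levels of 12 genes on each array (points; log2 signal against the array's 75th percentile) and group means (lines) in ES, ESRL, ED and EDRL; each panel has its own y axis. The ED controls of 1700007K13Rik, Rprm and Trp73 lie far under the ES controls, Hoxc10 falls in ESRL, Apoe rises in ESRL, and Gcgr and Cenpf fall in EDRL.

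Genes that rose in ED from a level far under that of ES led the list outside the p53 targets too. Tmc7, a transmembrane channel-like gene, was at 0.22, 0.19 and 0.51 in ES, 0.52, 0.99 and 0.81 in ESRL, -5.77, -5.58 and -5.18 in ED and -1.93, -2.08 and -1.94 in EDRL. Etnk2, an ethanolamine kinase, was at 1.09, 0.89 and 1.11 in ES, 1.94, 1.36 and 1.26 in ESRL, -5.82, -5.8 and -5.62 in ED and -2.33, -2.63 and -2.48 in EDRL. In both genes all groups were separate, the rise in ED was 11.5-fold and 9.65-fold, and the differences were -3.06 ± 0.26 (adjusted p = 0.00109) and -2.78 ± 0.26 (adjusted p = 0.00156).

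Inpp5d, the phosphatase SHIP1 of hematopoietic signaling, was at 3.49, 3.5 and 3.51 in ES, 3.98, 3.48 and 3.6 in ESRL, -5.66, -5.33 and -4.97 in ED and -2.35, -2.66 and -2.33 in EDRL. This probe differed by -2.69 ± 0.28 (adjusted p = 0.00191), whereas the other probes of the gene differed by -0.57 and -0.43, so that the probes disagree in size. Ihh, the secreted ligand Indian hedgehog, was at -2.08, -1.95 and -2.04 in ES, -2.91, -2.74 and -2.62 in ESRL, -5.92, -5.67 and -5.36 in ED and -3.82, -4.04 and -3.75 in EDRL. It rose in ED (1.78) while its ES response was -0.73 with no overlap of the arrays, a difference of -2.52 ± 0.23 (adjusted p = 0.00156). Tek, the endothelial receptor of angiopoietins and the only one of the lineage markers listed whose responses differed, rose in ED by 2.58 from between -4.83 and -4.3 and differed by -2.23 ± 0.29 (adjusted p = 0.00419). The other 3 blood and endothelial markers tested, Cdh5, Gata1 and Pecam1, were not called, and Gata1 was well above background on none of the ED and EDRL arrays.

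Stox2, a winged helix gene, was at -0.73, -0.72 and -0.5 in ES, -0.96, -0.33 and -0.37 in ESRL, -2.86, -2.26 and -1.94 in ED and 0.89, 0.68 and 0.71 in EDRL, and differed by -3.01 ± 0.34 (adjusted p = 0.00273), with -2.33 on its other probe. ES and ESRL overlapped, and EDRL ended above every other group. Sycn, which encodes syncollin of secretory granules, and Prl2c1, a prolactin family gene, rose in ED by 2.1 and 1.98 and differed by -2.72 ± 0.53 (adjusted p = 0.0244) and -2.62 ± 0.57 (adjusted p = 0.0387). Both were lost in most of the fits that left out 1 array, with adjusted p of up to 0.0759 and 0.107, each without replicate 3 of ES.

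The low starting level was common among the genes that rose in ED alone. Of the 198, 163 (82.3%) were lower in ED than in ES controls by more than 1 on the log2 scale, against 29.8% of all genes tested. Their median level was -6.39 in ED and -4.24 in EDRL, and -3.06 in ES and -3.1 in ESRL. In 168 of them (84.8%, against 42.5% of all genes) the gap between the cell types was narrower after irradiation than before, and 120 of the 163 were still lower in EDRL than in ESRL. The control arrays enter both measures, so these shares are descriptions without a test. Of the 198 genes, 98 were well above background on all 12 arrays, against 16396 of the 26012 genes tested.

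**Figure D4:**
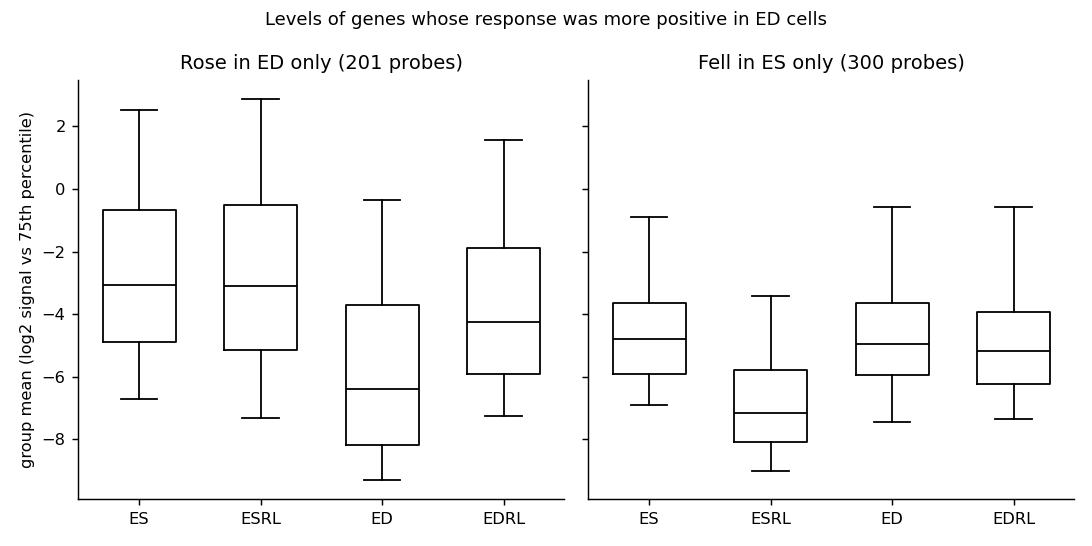
Group means (log2 signal relative to the 75th percentile) of the probes more positive in ED, for the 201 probes that rose in ED without a call in ES (left) and the 300 that fell in ES without a call in ED (right); boxes span the quartiles with the median as a line, and whiskers the 5th to 95th percentile. On the left the ED controls are lowest (median -6.39) and move up toward ES; on the right ES, ED and EDRL lie close together and ESRL alone is low (median -7.16).

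The 298 genes that fell in ES alone had another pattern. Their median levels were -4.78 in ES, -4.96 in ED and -5.17 in EDRL, and -7.16 in ESRL, and only 15 of them (5.03%) were lower in ED than in ES controls by more than 1. The lowest signal well above background was -6.1, -7.53 and -7.61 on replicates 1, 2 and 3 of ESRL, so that the ESRL median lies near background. Compared with 16396 of the 26012 genes tested, 79 of the 298 were well above background on all 12 arrays. Hoxc10, a homeobox gene of the posterior body axis, was among these, at -0.92, -0.76 and -0.83 in ES, -4.07, -3.45 and -3.66 in ESRL, -0.73, -0.82 and -0.55 in ED and -1.1, -1.09 and -0.86 in EDRL. It fell 7.42-fold in ES, its ESRL arrays lay apart from all 9 others, and the difference was -2.58 ± 0.24 (adjusted p = 0.00156). Some lineage markers fell in ES as well, without a difference that passed, where 7.82% of all genes fell. Of the 5 endoderm markers tested 4 fell (Gata4 by 1.07, Sox17 by 1.18, Foxa2 by 1.04 and Dab2 by 1.02 on 1 of its 4 probes). Pdgfra was the 1 of 8 mesoderm markers that fell, and Lum the 1 of 9 fibroblast markers. None of the 7 neural ectoderm, 6 trophoblast and 4 blood and endothelial markers tested fell. All 5 endoderm differences were below 0, with a median of -0.71. The dimmest signal class of all probes had a median ES response of -0.62 and a median ED response of -0.18, which became -0.07 and -0.11 with quantile normalization. The part of signal brightness in these falls was not tested.

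Immediate early genes, which are switched on within minutes by growth and stress signals, differed for 3 of 21 tested (14.3%, against 2.21% of all genes), all more positive in ED. Fos, a subunit of the AP-1 transcription factor, was at 1.43, 1.32 and 1.55 in ES, 0.71, 1.76 and 1.03 in ESRL, -1.49, -1.55 and -1.41 in ED and 0.08, 0.05 and 0.09 in EDRL. ES and ESRL overlapped, EDRL lay above ED by 2.94-fold, and the difference was -1.82 ± 0.32 (adjusted p = 0.0168), lost in 3 of the 12 fits that left out 1 array (adjusted p up to 0.0572, without replicate 3 of ES). Zfp36, whose protein degrades cytokine mRNAs, was lower in ESRL than in ES without overlap (response -0.8) and differed by -1.14 ± 0.19 (adjusted p = 0.0142). Egr2, a zinc finger factor, rose in ED by 1.03 and differed by -1.06 ± 0.25 (adjusted p = 0.0488), a call kept in 1 of the 12 fits that left out 1 array. Egr1 and Atf3 did not pass, with differences of -1.08 (interval -1.73 to -0.44) and -0.36 (interval -0.9 to 0.18). The median of the list was -0.48 and stayed between -0.48 and -0.32 under the scalings tried, with 1 or 2 of the genes called and Egr2 in none of them. None of the 3 was called without replicate 3 of ES. Of 21 chemokine and NF-kB response genes tested, 1 was called on the ED side (4.76%, against 2.21% of all genes). This was the chemokine gene Cxcl1 (-1.2 ± 0.24, adjusted p = 0.0279), which was lower in ESRL than in ES and higher in EDRL than in ED. Neither response was over 1 in size.

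Mitotic genes had calls on the ES side for 4 of 27 tested (14.8%, against 0.807% of all genes). The median response of the list was -0.13 in ES and -0.64 in ED, and 23 of the 27 differences were above 0, against 10515 of 26012 genes. In ED 4 of the 27 fell (Cenpf, Plk1, Prc1 and Tpx2, of which only Cenpf was also called in the difference) and none rose, and in ES none passed. Of all genes, 0.523% fell and 1.84% rose in ED. The median difference of 0.5 ranged from 0.44 to 0.69 under the scalings tried, with 2 to 8 of the genes called, and no gene of the list was called without any 1 of 5 arrays, namely replicate 2 of ED, replicate 3 of EDRL and each ES replicate.

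Cenpf, a kinetochore protein, was at -3.31, -2.8 and -2.8 in ES, -2.63, -3.45 and -3.12 in ESRL, -2.51, -2.75 and -2.99 in ED and -4.62, -4.25 and -4.76 in EDRL. ES and ESRL overlapped, EDRL lay under all 9 other arrays, and the fall of 3.47-fold in ED gave a difference of 1.7 ± 0.35 (adjusted p = 0.0309). Cdc20, the activator of the anaphase-promoting complex, was at 4.97, 4.94 and 4.83 in ES, 5.41, 5.04 and 5.04 in ESRL, 4.13, 3.94 and 3.91 in ED and 3.22, 3.16 and 3.05 in EDRL. Its groups were separate in both cell types, in opposite directions, and the difference was 1.1 ± 0.2 (adjusted p = 0.0195), although neither response was over 1 in size. Ttk, the spindle checkpoint kinase, and Cdc25b, the phosphatase that activates CDK1 at mitotic entry, differed by 1.03 ± 0.2 (adjusted p = 0.0236) and 1.35 ± 0.27 (adjusted p = 0.0266), with 0.33 and 1.29 on their other probes.

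The cell cycle homology region (TTTGAA, or TTCAAA on the other strand) was present in the 250 bases before the start of 9 of the 22 mitotic genes with a window (40.9%). The share was 18.3% of all genes with one and 14.9% of the tested genes with one. Of the 4 called genes only Cdc20 held it, 13 to 18 bases before the start, shown in capitals.
Cdc20, chr4:118437344-118437593 (GRCm38.p6), minus strand: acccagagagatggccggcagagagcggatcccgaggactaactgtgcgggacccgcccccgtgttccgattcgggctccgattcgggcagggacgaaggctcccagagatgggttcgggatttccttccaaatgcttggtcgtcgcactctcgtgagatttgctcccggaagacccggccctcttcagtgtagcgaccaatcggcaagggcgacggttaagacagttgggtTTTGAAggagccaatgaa

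Other genes more positive in ES included some that rose in ES, some that fell in ED and some in which neither response was called. Apoe, the apolipoprotein E of lipid transport, was at 1.32, 1.27 and 1.26 in ES, 2.55, 2.83 and 3.4 in ESRL, -4.79, -4.83 and -4.45 in ED and -4.95, -5.09 and -4.89 in EDRL. It rose 3.12-fold in ES from a level already far above ED, with separate groups, and differed by 1.93 ± 0.29 (adjusted p = 0.0087), whereas its other probe differed by 0.3. Gcgr, the glucagon receptor, was at -2.54, -2.54 and -2.71 in ES, -2, -2.14 and -2.25 in ESRL, -2.96, -2.54 and -2.96 in ED and -4.59, -4.12 and -4.06 in EDRL. It fell 2.71-fold in ED and differed by 1.9 ± 0.25 (adjusted p = 0.00478).

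Bbs7, a subunit of the BBSome that carries cargo to cilia, was at -5.31, -4.95 and -5.2 in ES, -4.06, -3.55 and -3.71 in ESRL, -5, -5.56 and -5.76 in ED and -6.76, -6.1 and -6 in EDRL. All groups were separate within a cell type, and the difference was 2.22 ± 0.36 (adjusted p = 0.013).

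Nedd4l, a ubiquitin ligase of membrane channels, was at -6.23, -5.98 and -5.62 in ES, -4.69, -3.9 and -4.14 in ESRL, -2.87, -3.01 and -2.78 in ED and -3.32, -3.14 and -3.21 in EDRL. It rose in ES by 1.7 toward the higher ED level and differed by 2.04 ± 0.31 (adjusted p = 0.0087), with 1.47 on its other probe. Nt5c3, a nucleotidase of pyrimidines, was at -5.05, -4.87 and -4.73 in ES, -4.49, -3.56 and -3.47 in ESRL, -3.97, -3.78 and -3.58 in ED and -4.84, -4.81 and -4.47 in EDRL, and differed by 1.97 ± 0.36 (adjusted p = 0.0196). Sos1, the exchange factor that activates Ras, was at -4.77, -4.26 and -4.05 in ES, -3.09, -2.85 and -2.91 in ESRL, -3.01, -2.72 and -2.19 in ED and -3.17, -3.16 and -3.02 in EDRL, and differed by 1.89 ± 0.33 (adjusted p = 0.0165).

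Mtres1, a mitochondrial RNA-binding factor, Syt4, a synaptotagmin, and Med23, a subunit of Mediator, rose in ES by 1.16, 1.05 and 1.36 and had ED responses of -0.71, -0.82 and -0.43. Their differences were 1.87 ± 0.23 (adjusted p = 0.00374), 1.86 ± 0.26 (adjusted p = 0.00643) and 1.79 ± 0.29 (adjusted p = 0.0128). Prdm16, a zinc finger regulator, differed by 1.8 ± 0.39 (adjusted p = 0.0387) with neither response called, and lost the call in 8 of the 12 fits that left out 1 array (adjusted p up to 0.105, without replicate 3 of ES).

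Replication, repair and ribosomal genes gave few calls or none. At the 3.01% called over all genes, lists of this size would also give few. Of 25 DNA replication genes tested none differed, with a median difference of 0.16. Of 35 damage sensing and repair genes 1 differed (2.86%), Dna2, a nuclease and helicase of end resection. Dna2 was at 0.6, 0.88 and 0.98 in ES, 1.31, 2.32 and 1.92 in ESRL, -0.51, -0.69 and -0.38 in ED and -0.96, -0.93 and -1.01 in EDRL, a difference of 1.47 ± 0.33 (adjusted p = 0.0406) that was called in 2 of the 12 fits that left out 1 array (adjusted p up to 0.103, without replicate 1 of ES). Ung, the uracil glycosylase, fell in ED (-2.21, adjusted p = 0.0345), but its ES arrays ran from 1.74 to 3.81 with 1 usable control, and the difference of 2.1 had an interval from 0.32 to 3.89 (adjusted p = 0.181).

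None of 71 cytosolic ribosomal protein genes differed, against 3.01% of all genes, although 67 of the 71 differences were above 0. Their median was 0.22 and between 0.09 and 0.39 under the scalings tried, and up to 4 of them were called there. Rpl12, the largest, rose in ES by 1.64 and was at -0.14 in ED, a difference of 1.78 with an interval from 0.76 to 2.8 (adjusted p = 0.0706). The serine/threonine phosphatase PP2A was a subject of the study, and none of its 20 subunits and regulators tested differed, against 3.01% of all genes. Ppp2ca, its catalytic subunit alpha, was at 2.26 and 2.32 in the 2 usable ES arrays, 2.27, 3.5 and 3.39 in ESRL, 3.21, 3.31 and 3.52 in ED and 3.04, 3.28 and 3.4 in EDRL. The groups overlapped in both cell types, and the interval of the difference ran from -0.13 to 1.87 (adjusted p = 0.304), a range that includes both no difference and one of over 1 on the log2 scale.

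None of the 20 pluripotency genes tested was called, against 3.01% of all genes, with a median response of -0.13 in both cell types. Of 13 two-cell-like genes, which mark a rare totipotent-like state of ES cultures, 2 were more positive in ES (15.4%, against 0.807% of all genes). Tdpoz1 was between -3.38 and -2.92 in all ES and ESRL arrays and was well above background on 2 of the 3 ED arrays and on no EDRL array. Its fall in ED is therefore known only as at least 1.45-fold, and its called difference (adjusted p = 0.0239) rests on signals under background. Tcstv1 was between 5.23 and 5.86 in ES and ESRL, from -2.58 to -2.55 in ED and from -3.48 to -3.17 in EDRL (difference 1.05 ± 0.21, adjusted p = 0.0288), a call kept in 2 of the 12 fits that left out 1 array. No gene was called among 24 interferon response genes, 21 members of the BCL2 family and caspases, 13 stress response genes of ATF4 and the endoplasmic reticulum and 16 antioxidant genes, and their median differences were -0.35, -0.04, -0.21 and 0.12. At the 3.01% called over all genes, lists of this size would hold few calls or none.

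**Figure D5:**
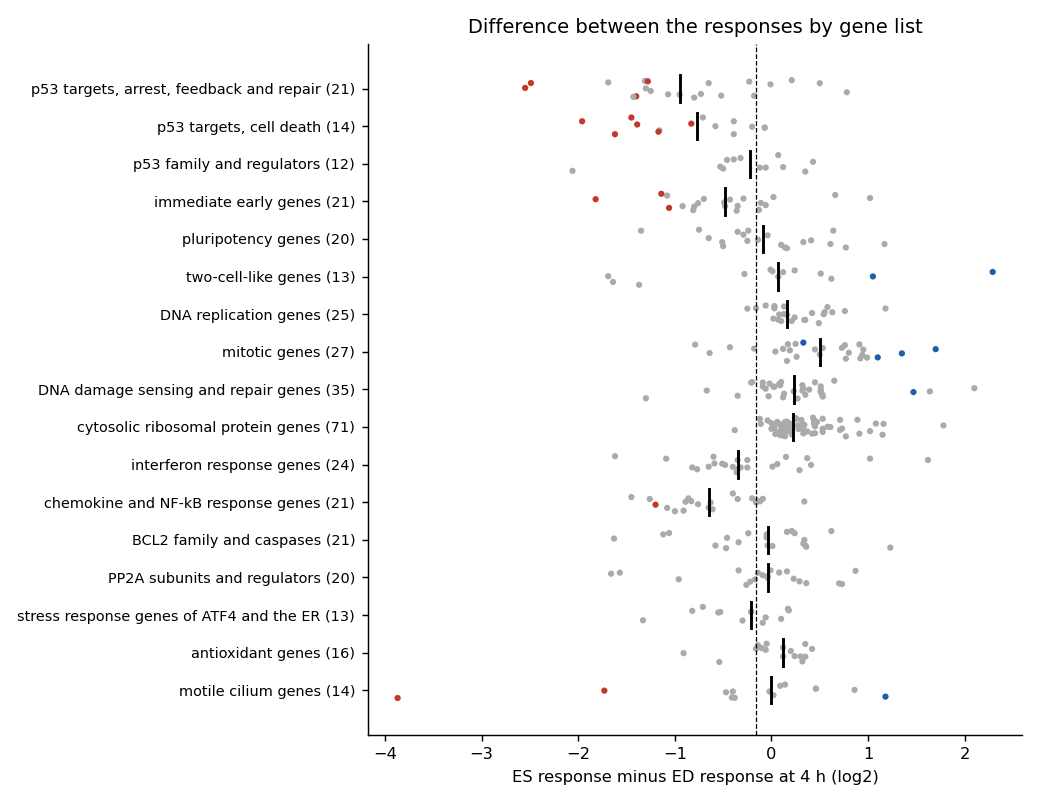
The difference between the responses (ES minus ED, log2) of each gene tested in 17 gene lists, with the number of genes tested in parentheses; red and blue points were called more positive in ED and in ES, black bars are list medians and the dashed line is the median of all genes (-0.16). The p53 target lists lie furthest to the left (medians -0.95 and -0.77) and the mitotic genes furthest to the right (0.5).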

How the data were processed

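Total RNA of 18 samples was labeled with Cy3 and hybridized to Agilent one-color arrays, and the 12 arrays of ES, ESRL, ED and EDRL were used. The authors deposited the scanner output of each array, in which the processed signal is a background-subtracted intensity not normalized between arrays, as per the file headers (Feature Extraction 10.7.3.1, where the submitters' processing notes name 9.1). They also deposited a matrix of log2 values, used as an alternative, which as tested on the files are log2 signals, with those under 5 raised to 5, minus about the array median (column medians of 0.572 to 0.721, with the exact centring unknown).

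Of 39448 spots, control spots and spots marked as outliers were left out. Signals were scaled to the 75th percentile of the array and put on the log2 scale. A probe was tested if, in at least 1 group, all 3 arrays had it well above background, and replicate spots were averaged. Names came from RefSeq (GRCm38.p6) for 22216 of 37246 probes, and the file's names were kept otherwise. The model was fitted with limma 3.58.1 in R 4.3.3 to the 12 arrays, so that the 4 groups share the estimate of the spread. Where a gene had several probes, any called probe counted, and list medians used the brightest. A probe not well above background on any array of a group was given a bound from the lowest signal well above background on each array. Errors are standard errors, intervals are 95%, and precision is limited by the 3 arrays per group.

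Genes were named by rule: the 10 largest differences in each direction among called genes with a RefSeq mRNA name, well above background and with a usable spot on all 12 arrays, 21 genes listed by hand, of which Bbc3 and Phlda3 were not tested, and up to 4 called members of each list in each direction. The members and gene lists were chosen with earlier results of these data known. The procedure was run on simulated data with independent noise on each array, no slide effect and changes placed in ESRL only. That run cannot speak to the slides or to the unequal ESRL arrays of the real data. Alternatives changed the background correction, scaling, filter, outlier spots, arrays fitted, block, weights, test, fold limit and probe, and left out each array in turn.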

Additional observations from a re-analysis of the deposited data

Results flagged for a closer look

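The difference between the ES and ED responses, ES minus ED on the log2 scale, was tested with limma for each named gene. It passed for 41 of the 52, but genes not listed by hand were named only where they were called. The count is therefore no share to set against the 3.01% called over all genes. Of the 41, 23 were called under all 5 other scalings, and 20 in all 12 fits that left out 1 array. They were 1700007K13Rik (-3.87), Tmc7 (-3.06), Stox2 (-3.01), Etnk2 (-2.78), Inpp5d (-2.69), Hoxc10 (-2.58), Ihh (-2.52), Rprm (-2.49), Tek (-2.23), Fas (-1.96), Perp (-1.62) and Gdf15 (-1.28) on the ED side. On the ES side they were Bbs7 (2.22), Nedd4l (2.04), Apoe (1.93), Gcgr (1.9), Sos1 (1.89), Mtres1 (1.87), Syt4 (1.86) and Med23 (1.79). All of these but Gdf15, which was called in 3, were also called in all 5 scalings.

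The other 21 lost the call when at least 1 array was left out. For each the array whose omission gave the highest adjusted p is named. Without replicate 3 of ES these were Sycn (-2.72, adjusted p = 0.0759), Prl2c1 (-2.62, 0.107), Btg2 (-2.55, 0.123), Fos (-1.82, 0.0572), Cxcl1 (-1.2, 0.0859), Egr2 (-1.06, 0.121), Prdm16 (1.8, 0.105), Foxj1 (1.18, 0.107), Cdc20 (1.1, 0.0692) and Ttk (1.03, 0.0744). Without replicate 2 of ES they were Drc7 (-1.73, 0.078), Ptp4a3 (-1.4, 0.0577), Tnfrsf18 (-1.39, 0.0642), Zfp36 (-1.14, 0.0516) and Tcstv1 (1.05, 0.0879). Without replicate 1 of ES they were Tdpoz1 (2.29, 0.0688), Nt5c3 (1.97, 0.0599) and Dna2 (1.47, 0.103). Without replicate 2 of ED they were Pmaip1 (-1.45, 0.0949) and Cdc25b (1.35, 0.0768), and without replicate 3 of EDRL Cenpf (1.7, 0.081). Ttk, Tcstv1 and Tnfrsf18 were called in 1 of the 5 scalings and Egr2 in 0, and the differences of Tdpoz1, Pmaip1 and Tnfrsf18 rest on signals under background.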

How the results depend on the processing

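The number of genes called moved with most settings, although the p53 targets called were on the ED side throughout. Given as more positive in ES and then in ED (210 and 574 in the report), the counts were 246 and 377 with each array set to its median, 399 and 403 with quantile normalization, 101 and 297 with normexp, 204 and 305 with only probes clearly above background on each of the 12 arrays, 64 and 237 with all 18 arrays fitted, 729 and 3406 with array weights, 401 and 441 with centred responses and 599 and 2062 by the methods' t-test without adjustment, 197 and 468 after Benjamini-Hochberg. With slide as a random block they were 0 and 3. Leaving out 1 array gave 60 to 588 and 208 to 2959. The count on the ED side moved by over 1.5 times without any 1 array except replicate 3 of ED and replicate 1 of ESRL, and was 379 and 249 without ED 1 and 2, 282, 359 and 308 without EDRL 1, 2 and 3, 277, 225 and 208 without ES 1, 2 and 3, and 2959 and 1177 without ESRL 2 and 3. Of the 784 genes, 500 were called again with each array set to its median, 525 with quantile normalization, 277 with normexp and 714 without replicate 1 of ESRL.

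Genes higher in ESRL than in ES (276) numbered 786 with each array set to its median, 612 with quantile normalization, 181 with normexp, 799 in the deposited matrix, 37 with the slide block, 481 with array weights, 466 with centred responses, 841 with no fold limit and 174 to 468 without 1 array. Those lower (2034) numbered 1125, 844, 594 and 1123 under the first 4 of these, 612 with only probes clearly above background, 249 with the slide block, 3768 with array weights, 3283 by the unadjusted t-test and 914 to 4811 without 1 array. In ED those higher (479) numbered 289 with normexp, 299 well above background on all 12 arrays, 84 with the slide block, 1038 with array weights, 844 by the unadjusted t-test and 303 (without replicate 2 of ED) to 671 without 1 array. Those lower (136) numbered 63 with each array set to its median, 89 with quantile normalization, 32 with normexp, 54 in the matrix, 66 well above background on all 12 arrays, 61 with all 18 arrays, 0 with the slide block, 666 with array weights, 90 with centred responses, 453 with no fold limit, 387 by the unadjusted t-test and 61 to 244 without 1 array.

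The 10 p53 targets called were 5 with each array set to its median, 6 with no filter on dim probes, 4 with all 18 arrays, 0 with the slide block, 17 with array weights, 16 by the unadjusted t-test and 4 to 18 without 1 array (4 without ED 2, ES 2 or ES 3, and 18 without ESRL 2). The difference of Tnfrsf18 reversed to 0.13 with normexp (limma adjusted p = 0.718). The causes of these changes were not tested.

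Samples with the same replicate number did not deviate together, since the correlations of their deviations ran from -0.19 to 0.22 and 4 of 18 were over 0.1, so that the numbers were not taken as pairs. With the replicate block 138 and 369 genes were called, and 29 of the 41 named calls kept an adjusted p under 0.05. Signals near background limit what can be said of dim probes.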

Other observations

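Grhl3 and Mc1r, chosen after their values were seen, were with 1700007K13Rik the 3 genes called with slide as a random block. Grhl3, a transcription factor of surface epithelium, averaged 2.7 in ES, 2.27 in ESRL, -6.92 in ED and -3.31 in EDRL, and was well above background on 10 of the 12 arrays (difference -4.04 ± 0.19, limma adjusted p = 2.3e-05). Mc1r, the melanocortin receptor, averaged -4.8 in ES, -3.58 in ESRL and -4.94 in EDRL, and no ED array was well above background. Its rise in ED was at least 5.66-fold, against a rise of 1.22 on the log2 scale in ES, and its called difference (adjusted p = 0.000513) rests on signals under background.

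Larger differences than those of the genes named in the report were called among genes lacking a usable spot on every array, given here after their values were seen. B4galt1, a galactosyltransferase, fell in ES by 4.36 and had an ED response of -0.17 (difference -4.2 ± 0.54, adjusted p = 0.00585). Dusp2, a phosphatase of MAP kinases, rose in ES by 2.31 and had an ED response of -0.7 (difference 3.01 ± 0.28, adjusted p = 0.00262).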
